A study of Mus musculus with 8 samples.

Results

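Genes through which the tumour suppressor p53 arrests the cell cycle and limits its own activity were followed in mouse embryonic fibroblasts (MEFs), connective tissue cells grown out of dissociated embryos. The 10 genes were chosen by name: Trp53, which encodes p53 itself, and the targets Mdm2, Ccng1, Btg2, Sesn1, Sesn2, Trp53inp1, Zmat3, Phlda3 and Plk2. Earlier results of these data were known when the genes were chosen, so shares of all genes set beside their counts are descriptive. Of the 10, 9 were measured, each by 1 transcript cluster (the array's probe group for a gene), among 17501 named genes in all. Trp53 was not analysed here, so every value below concerns its targets.

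The study set Smurf2-/- cells, which lack the ubiquitin ligase Smurf2, against wild-type cells on 8 Affymetrix arrays, 4 per genotype. Cells came from crosses between 129SVJ and NIH Black Swiss, called mixed BL, or from C57B6, and were sampled late (passage 33 in mixed BL, 28 in C57B6) or early (passage 6 in mixed BL, 7 in C57B6). Each combination had 1 array. The mixed BL cultures were pools of 3 embryos for Smurf2-/- and 2 for wild-type, whereas each C57B6 culture is described as coming from a single embryo. All cells grew in the same serum medium and none received a treatment. The labels do not say whether late and early arrays followed a single culture, and p-values reflect no more than the spread among these 8 arrays, which may be technical. With 1 array per combination, the spread used by the main fit also includes any interaction of the factors.

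In unstressed cells Mdm2, a ubiquitin ligase, keeps p53 low by marking it for degradation. Stress frees p53, which then switches on Mdm2 again, closing a negative feedback loop, together with genes that halt division, restrain growth signals or promote cell death. In human cells Smurf proteins have been reported to stabilise MDM2 by favouring its pairing with MDM4. Fibroblasts of mouse embryos are a classical setting for p53, because they stop dividing after some passages in culture, and lines that grow on have often lost p53 function or that of its upstream activator Cdkn2a.

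Values are log2 differences from each gene's median over the 8 arrays, so 0 is the middle of a gene's own values and no level of a gene, nor an order of genes by level, can be read from them. A consequence of this centring is that the middle pair of arrays of a gene lies at equal distances on either side of 0. The targeted gene separated the labelled genotypes. Smurf2 ranged from -1.21 to -0.43 in Smurf2-/- arrays, against 0.43 to 0.96 in wild-type arrays, a difference of -1.57 ± 0.12 (SE) with a limma adjusted p of 0.0484. Sex-linked genes also separated the genotypes completely. Xist, whose RNA coats the inactive X of females, ranged from -2.07 to -1.53 in Smurf2-/- arrays, against 1.53 to 3.20 in wild-type arrays. The sex of the embryos and their genotype therefore cannot be told apart in any genotype difference below. With centred values the fibroblast label could be checked for differences only: the mean of 10 fibroblast markers ranged from -0.88 to 0.71 in Smurf2-/- arrays, against -0.72 to 0.46 in wild-type arrays.

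Promoter sequences, from the RefSeq table of build GRCm38.p6, were at hand for 7 of the 9 measured targets, in 8 windows from 250 bases before to 50 after a gene's start (Sesn1 has 2 starts). They are shown so that these targets can be compared by the letters before their starts, whether or not they moved together. The p53 half-site consensus, 10 bases read on both strands, occurred in 3 of them, in Ccng1, Mdm2 and the downstream start of Sesn1, against 8.36% of all 32851 windows. In Ccng1 it completes a tandem of half-sites, 20 bases with 1 mismatch, which at most 1 mismatch finds in 0.0883% of all windows. The tandem search was added after the sequences had been seen. Capitals mark the tandem in Ccng1, at chr11:40755417-40755526 on the minus strand, and the half-site in Mdm2, at chr10:117710890-117710989 on the minus strand, and in Sesn1, at chr10:41887221-41887320 on the plus strand.
Ccng1: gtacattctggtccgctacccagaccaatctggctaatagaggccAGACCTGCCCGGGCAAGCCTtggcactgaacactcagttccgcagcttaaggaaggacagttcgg
Mdm2: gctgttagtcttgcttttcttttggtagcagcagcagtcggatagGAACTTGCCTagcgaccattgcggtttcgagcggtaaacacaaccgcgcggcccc
Sesn1: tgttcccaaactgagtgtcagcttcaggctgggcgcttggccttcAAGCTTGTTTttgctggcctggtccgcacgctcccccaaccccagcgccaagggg

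Btg2 and Plk2 carried no half-site in these windows but shared the cyclic AMP response element, TGACGTCA, which reads the same on both strands. It was found in 1.79% of all windows. Capitals mark it in Btg2, at chr1:134079269-134079366 on the minus strand, and in Plk2, at chr13:110394937-110395034 on the plus strand. The windows of Phlda3 and Sesn2 held neither motif. Such a match describes letters only, and the well-known p53 elements of Mdm2 lie in its first intron, outside the window.
Btg2: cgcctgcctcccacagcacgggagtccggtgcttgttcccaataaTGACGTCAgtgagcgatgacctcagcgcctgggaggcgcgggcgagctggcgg
Plk2: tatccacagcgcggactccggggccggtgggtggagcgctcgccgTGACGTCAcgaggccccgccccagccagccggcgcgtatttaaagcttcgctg

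Time in culture was the comparison in which the targets lay furthest apart. At late passage 7 of the 9, namely Mdm2, Ccng1, Btg2, Trp53inp1, Zmat3, Phlda3 and Plk2, were lower than at early passage in all 4 matched pairs of arrays, where 11.9% of all genes were. In the 3 pairs other than Smurf2-/- mixed BL the same count, 7, was lower in every pair, against 14.6% of all genes. For Mdm2, Ccng1, Btg2, Zmat3 and Phlda3 every late array lay below every early array, which held for 4.59% of all genes. The median difference over the 9 targets was -0.78, where that over all genes was 0.03. None passed the test: limma called 0 of the 9 at an adjusted p under 0.05, and 0.0171% of all genes. At an unadjusted p under 0.05 it counted 8 of the 9, all but Sesn2, and 17.3% of all genes.

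Mdm2, the feedback ligase, stood at -0.92 and -0.11 in late Smurf2-/- arrays of mixed BL and C57B6 and at -0.09 and -0.20 in late wild-type arrays, against 1.14 and 0.09 in early Smurf2-/- and 1.15 and 0.33 in early wild-type arrays. Both early mixed BL arrays stood far above the rest, the late mixed BL Smurf2-/- array far below, and the late and early groups did not overlap. The mean was -0.33 ± 0.39 late and 0.68 ± 0.55 early (SD, n = 4 each). That is a log2 difference of -1.01 ± 0.31 (SE), 2.01-fold lower, with a limma adjusted p of 0.206.

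Ccng1 encodes cyclin G1, which recruits a phosphatase that acts on Mdm2. It stood at -0.89 and -0.16 in late Smurf2-/- arrays of mixed BL and C57B6 and at -0.76 in late C57B6 and -0.26 in late mixed BL wild-type arrays, against 0.74 and 0.20 in early Smurf2-/- arrays of mixed BL and C57B6 and 0.78 and 0.16 in early wild-type arrays. As for Mdm2, the early mixed BL arrays of both genotypes were highest and no late array reached an early one. The difference was -0.99 ± 0.24 (SE), 1.98-fold lower at late passage, with a limma adjusted p of 0.154.

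Btg2 encodes an antiproliferative protein that promotes removal of poly(A) tails from messenger RNA. Late Smurf2-/- arrays of mixed BL and C57B6 stood at -1.55 and -0.50 and late wild-type arrays at -0.10 and -0.06, against 0.06 and 0.59 in early Smurf2-/- and 0.32 and 1.33 in early wild-type arrays. Here the early C57B6 arrays, not those of mixed BL, were highest, and late and early groups again did not overlap. At -1.12 ± 0.20 (SE), 2.18-fold lower, it had the largest passage difference of the 9, with a limma adjusted p of 0.121.

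Trp53inp1 encodes a stress-induced nuclear protein that promotes p53 activity and autophagy. Its values were -1.24 and -0.57 in late Smurf2-/- arrays of mixed BL and C57B6 and 0.05 and -0.06 in late wild-type arrays, against -0.05 and 0.18 in early Smurf2-/- and 0.22 and 0.96 in early wild-type arrays. The order of the arrays resembled that of Btg2, but the late wild-type mixed BL array overlapped the early group. Its difference was -0.78 ± 0.17 (SE), with a limma adjusted p of 0.135.

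Zmat3 encodes a zinc finger protein that binds RNA, and Phlda3 a pleckstrin homology domain protein that competes with the kinase Akt for membrane lipids. Zmat3 stood at -1.23 and -0.24 in late Smurf2-/- arrays of mixed BL and C57B6 and at -0.03 and -0.59 in late wild-type arrays, against 0.13 and 0.31 in early Smurf2-/- and 0.03 and 0.57 in early wild-type arrays. Phlda3 stood at -1.45 and -0.09 in late Smurf2-/- arrays of mixed BL and C57B6 and at -0.27 and -0.50 in late wild-type arrays, against 0.25 and 0.09 in early Smurf2-/- and 0.33 and 0.26 in early wild-type arrays. In both genes the late mixed BL Smurf2-/- array was the lowest and the late C57B6 wild-type array came next. Passage differences were -0.78 ± 0.25 for Zmat3 and -0.81 ± 0.28 for Phlda3 (SE), with limma adjusted p of 0.218 and 0.24. For Phlda3 the difference was -0.49 when late Smurf2-/- mixed BL was left out. Zmat3 was nearly level in wild-type mixed BL cells, where late minus early was -0.06, and -1.36, -0.54 and -1.16 in Smurf2-/- mixed BL, Smurf2-/- C57B6 and wild-type C57B6.

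Plk2, a polo-like kinase active in centriole duplication, was an exception to the low place of the mixed BL Smurf2-/- cells. Its values were 0.01 and -0.86 in late Smurf2-/- arrays of mixed BL and C57B6 and -0.01 and -0.47 in late wild-type arrays, against 0.43 and 0.03 in early Smurf2-/- and 0.19 and -0.04 in early wild-type arrays. The late C57B6 arrays of both genotypes were the lowest, and the late and early groups overlapped. The passage difference was -0.49 ± 0.13 (SE), 1.40-fold, with a limma adjusted p of 0.172.

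The sestrins, which restrain the growth kinase mTORC1 when amino acids are short and protect against oxidative stress, were the members not lower in every pair. Sesn1 stood at 0.47 and 0.20 in late Smurf2-/- arrays of mixed BL and C57B6 and at 0.90 and -0.09 in late wild-type arrays, against -0.14 and -0.26 in early Smurf2-/- and 0.0022 and -0.0022 in early wild-type arrays. It was higher at late passage in 3 of 4 pairs, with a difference of 0.47 ± 0.17 (SE) and a limma adjusted p of 0.251. Sesn2 had the smallest passage difference of the 9: late minus early was -0.32 and -0.39 in Smurf2-/- and wild-type mixed BL and 0.01 and 0.03 in C57B6, an overall difference of -0.16 ± 0.11 (SE) with a limma adjusted p of 0.486. This difference was -0.07 when late wild-type mixed BL was left out, -0.09 when early Smurf2-/- mixed BL was left out, and -0.25 when either early Smurf2-/- C57B6 or late wild-type C57B6 was left out.

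**Figure D1:**
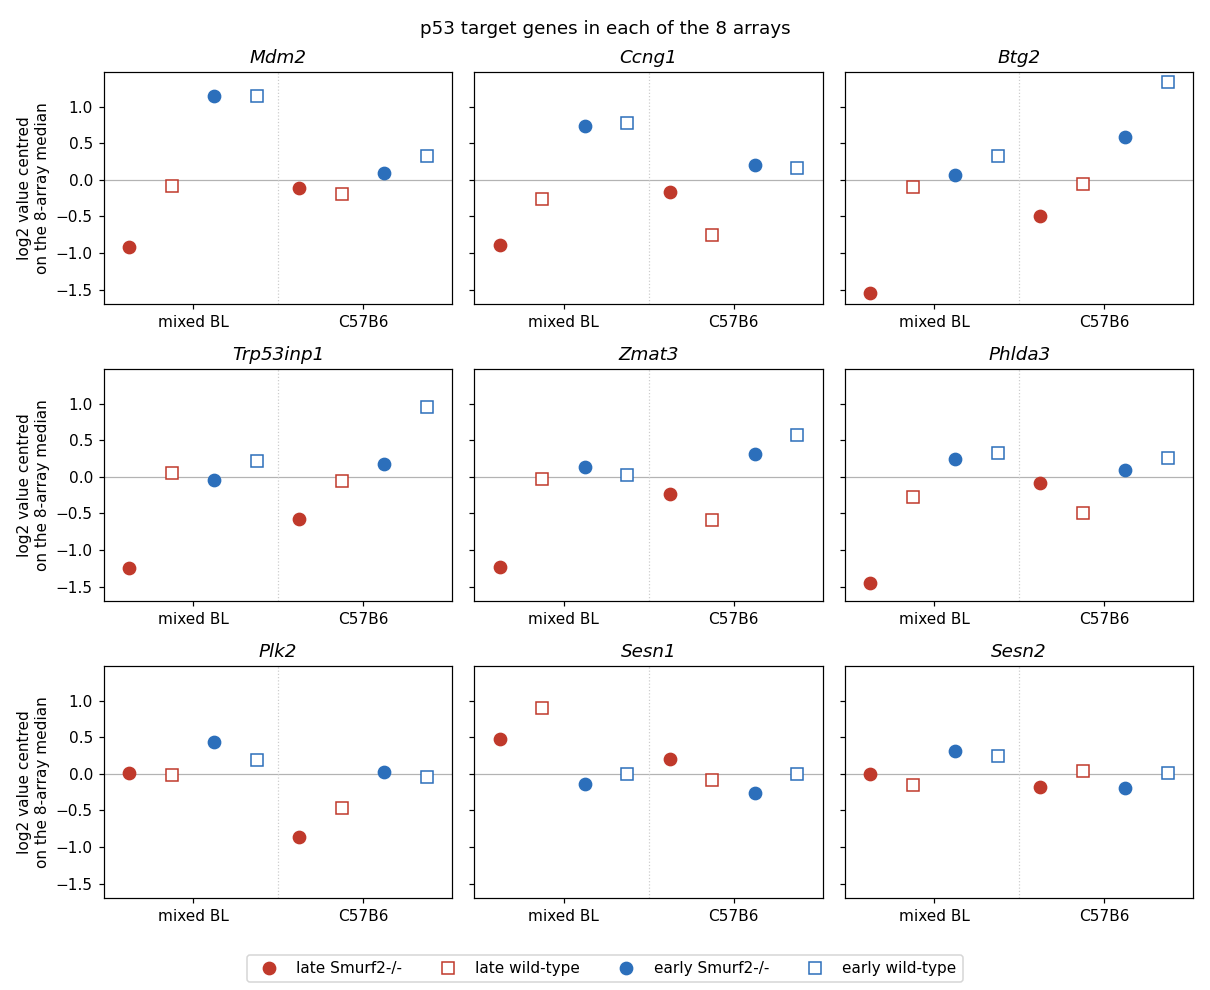
Each panel plots a gene's log2 value, centred on its median over the 8 arrays, in every array: mixed BL left and C57B6 right, late (red) left of early (blue), Smurf2-/- as filled circles and wild-type as open squares. The late mixed BL Smurf2-/- array is lowest in 6 panels, from -0.89 for Ccng1 to -1.55 for Btg2, and the Sesn1 panel runs the other way, with 0.90 in the late mixed BL wild-type array.

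**Figure D2:**
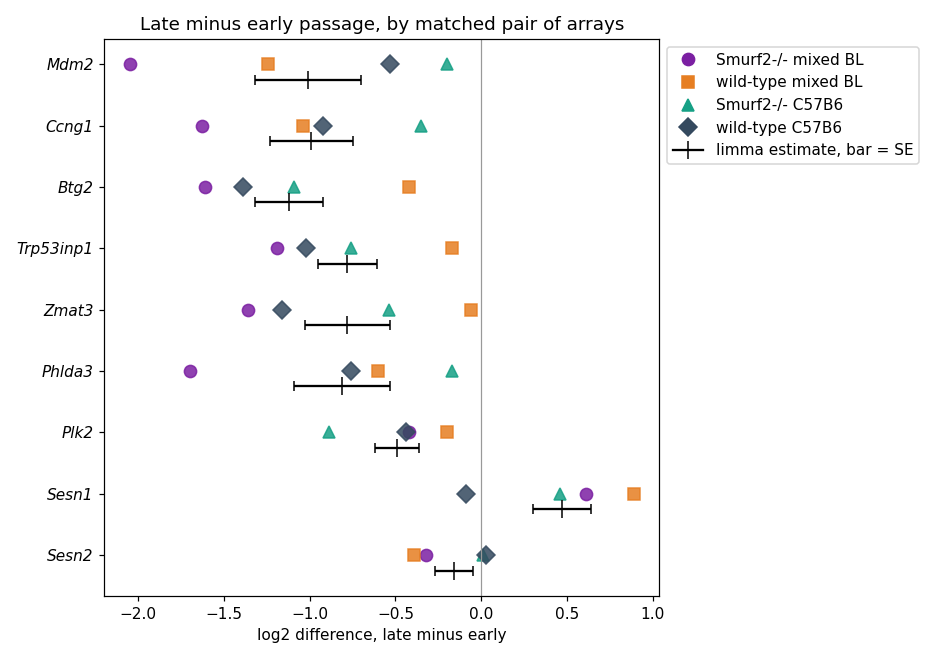
For each gene, coloured points give the log2 difference of late minus early passage in the 4 matched pairs, and the black bar below them the limma estimate with its SE. The upper 7 genes lie left of 0 in every pair, from -2.05 for Mdm2 in Smurf2-/- mixed BL to -0.06 for Zmat3 in wild-type mixed BL, whereas Sesn1 lies right of 0 in 3 pairs.

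Exact two-sided permutation of the 4 late against the 4 early arrays gave 0.0286, the smallest p that design allows and not corrected for the 9 genes, for the 5 targets whose groups did not overlap. It gave p = 0.0571 for Trp53inp1, 0.0857 for Sesn1, 0.114 for Plk2 and 0.314 for Sesn2 in the same exact test. The permutation treats all 8 arrays as interchangeable and would not apply to late and early arrays of a shared culture. No marker of macrophages and leukocytes or of fibroblasts was called for passage, where 0.0171% of all genes were. Of these markers, 2 of 8 and 2 of 10 had an unadjusted limma p under 0.05, against 17.3% of all genes. The mean of the 8 macrophage and leukocyte markers ranged from -0.13 to -0.03 in late arrays, against 0.05 to 0.56 in early arrays, although their median difference was -0.05 and the lowest single difference -1.72. The 10 fibroblast markers had fitted differences below 0, with a median of -0.47, where 7444 of 17501 genes were below 0. However, 2 of the 10 were lower in all 4 pairs, against 11.9% of all genes. In wild-type C57B6 5 of the 10 were lower and 5 higher. The part of either list in the passage differences was not tested, and fewer cells of a type cannot be told apart from less RNA per cell.

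The late mixed BL Smurf2-/- array held the lowest value for 6 of the 9 targets: Mdm2, Ccng1, Btg2, Trp53inp1, Zmat3 and Phlda3. Of all genes, 16.6% had their lowest value there. The median over the 9 targets was -0.92 in that array, where the median over all genes was -0.0035. In the other 3 late arrays the targets' medians were -0.18 in Smurf2-/- C57B6, -0.09 in wild-type mixed BL and -0.20 in wild-type C57B6. The 4 early arrays had medians of 0.25 and 0.09 in Smurf2-/- mixed BL and C57B6 and 0.24 and 0.26 in wild-type mixed BL and C57B6.

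Loss of Smurf2 was accompanied by lower Btg2 and Trp53inp1 in all 4 matched pairs, without passing the test. Btg2 was lower by -1.44 and -0.44 in late mixed BL and C57B6 and by -0.26 and -0.74 in early mixed BL and C57B6. Trp53inp1 differed by -1.29 and -0.51 in late mixed BL and C57B6 and by -0.26 and -0.78 in early mixed BL and C57B6. The fitted differences were -0.72 ± 0.20 (SE) for Btg2 and -0.71 ± 0.17 for Trp53inp1, 1.65-fold and 1.64-fold lower, both with a limma adjusted p of 0.651. These 2 of 9 compare with 9.35% of all genes that were lower without Smurf2 in every pair, and leaving out the late mixed BL pair left 2 of 9, against 13.1% of all genes. Limma called 0 of the 9 for genotype and 0.0286% of all genes. Its unadjusted p was under 0.05 for these same 2 targets and for 7.55% of all genes.

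At late passage Mdm2, Ccng1, Zmat3 and Phlda3 were lower in Smurf2-/- than in wild-type cells of mixed BL and higher in those of C57B6, and none of the 4 was called for genotype. Sesn1, also not called, had the same signs, at -0.43 in late mixed BL and 0.30 in late C57B6. For Mdm2 the difference of Smurf2-/- minus wild-type was -0.83 in late mixed BL and 0.08 in late C57B6, and -0.01 and -0.24 in early mixed BL and C57B6. For Ccng1 it was -0.63 in late mixed BL and 0.61 in late C57B6, and -0.04 and 0.04 in the early pairs. Late mixed BL and C57B6 cells gave -1.20 and 0.35 for Zmat3 and -1.18 and 0.42 for Phlda3, and the early pairs 0.10 and -0.26 for Zmat3 and -0.08 and -0.18 for Phlda3. These late pairs hold 1 array per genotype and background, so their contrast has no replicate and was not tested. Fitted over all pairs, the genotype difference was -0.25 ± 0.31 for Mdm2, -0.01 ± 0.24 for Ccng1, -0.25 ± 0.25 for Zmat3 and -0.25 ± 0.28 for Phlda3 (SE).

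Plk2 and the sestrins had fitted genotype differences of -0.01 ± 0.13 for Plk2, -0.13 ± 0.17 for Sesn1 and -0.05 ± 0.11 for Sesn2 (SE), none larger than its error. Sesn2 was higher in Smurf2-/- mixed BL cells, by 0.14 late and 0.07 early, and lower in Smurf2-/- C57B6 cells, by -0.22 late and -0.20 early. The median genotype difference over the 9 targets was -0.25, against 0.02 over all genes, and it was -0.39 when late Smurf2-/- C57B6 was left out, -0.05 when late Smurf2-/- mixed BL was left out and -0.11 when late wild-type mixed BL was left out. Quantile normalisation gave a median of -0.14. With late Smurf2-/- mixed BL omitted, the differences of Mdm2, Ccng1 and Phlda3 were 0.05, 0.24 and 0.06, above 0. Of the 9, only Btg2 and Trp53inp1 kept the sign of their genotype difference whichever array was left out.

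**Figure D3:**
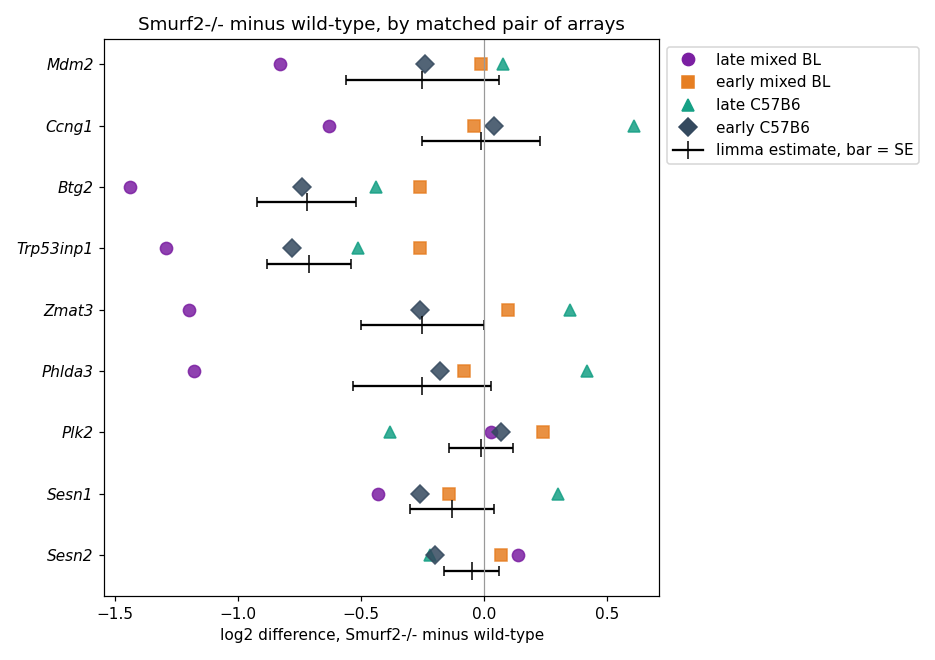
Coloured points give the log2 difference of Smurf2-/- minus wild-type in the 4 matched pairs for each gene, and the black bar below them the limma estimate with its SE. Btg2 and Trp53inp1 lie left of 0 in every pair, and the late mixed BL points of Zmat3 and Phlda3 at -1.20 and -1.18 stand apart from the early mixed BL points at 0.10 and -0.08.

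Whether one factor altered the effect of another was fitted for each pair of factors, and limma called none of the 9 in any of the 3 interactions, as it called 0% of all genes. Mdm2 came closest. Its late minus early difference was -2.05 and -1.24 in Smurf2-/- and wild-type mixed BL cells and -0.20 and -0.53 in C57B6 cells. The difference between backgrounds was -1.28 ± 0.33 (SE) with a limma adjusted p of 0.393. Mdm2 was the 1 target with an unadjusted p under 0.05 for passage by background, as were 9.19% of all genes. For genotype by passage and genotype by background 0 of the 9 reached that mark, against 5.35% and 3.18% of all genes. The limma adjusted p of the targets was 0.9998 throughout for genotype by passage and at least 0.939 for genotype by background.

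Between backgrounds Btg2 and Plk2 differed in opposite directions. Btg2 was lower in mixed BL than in C57B6 in 4 of 4 pairs, by -0.66 ± 0.20 (SE), and Plk2 higher in 4 of 4, by 0.49 ± 0.13, with limma adjusted p of 0.251 and 0.218. Sesn1 was also higher in mixed BL in 4 of 4 pairs, by 0.34 ± 0.17. Limma called 0 of the 9 for background and 0.08% of all genes, and its unadjusted p was under 0.05 for Btg2 and Plk2 and for 13.5% of all genes.

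Across the 8 arrays the targets formed groups of like pattern, given here as a description over arrays that share genotype, background or passage. Btg2 and Trp53inp1 were most alike (Pearson r = 0.98), followed by Mdm2 and Ccng1 (r = 0.94). Zmat3 ran close to Btg2 and Phlda3 (r = 0.92 with each) and Phlda3 close to Ccng1 (r = 0.87). Among the 21 pairs that leave out the sestrins, r ranged from 0.20 to 0.98 with a median of 0.68, the low end being Plk2 with Phlda3. Sesn1 was negatively related to all the others, from -0.49 with Btg2 and Phlda3 to -0.10 with Plk2. Sesn2 followed Mdm2 (r = 0.69) and Plk2 (r = 0.60) more than Btg2 (r = 0.09) or Zmat3 (r = 0.04).

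**Figure D4:**
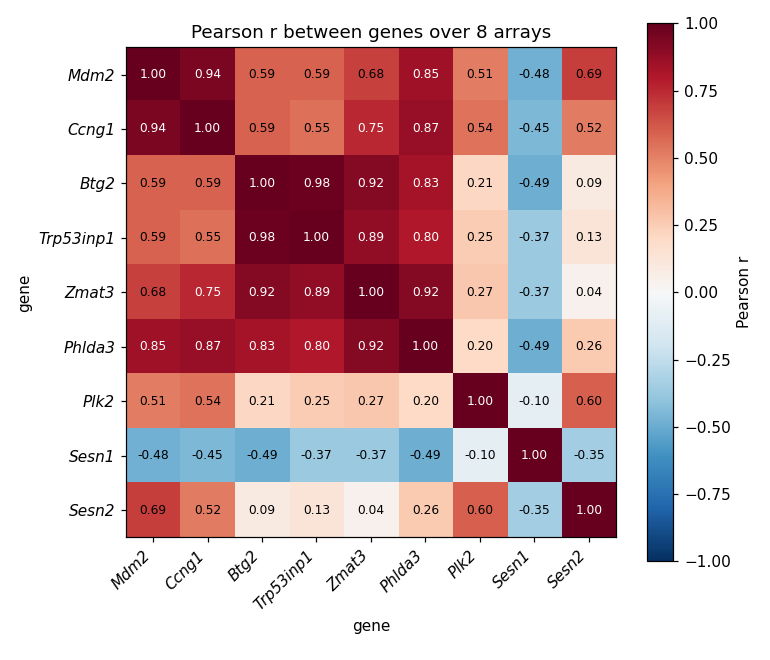
The matrix gives Pearson r between each pair of targets over the 8 arrays, red for positive and blue for negative values. Mdm2 with Ccng1 (0.94) and Btg2 with Trp53inp1 (0.98) are the darkest cells off the diagonal, and the Sesn1 row is negative throughout.

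Genes outside the list were ranked by likeness to the mean of the 9 targets. High r is a result of taking the top of such a ranking over 8 arrays, and no shared function of the ranked genes was tested. The 8 most alike were Emc9 (r = 0.981), Tpcn1 (r = 0.979), Mfsd1 (r = 0.977), Rnf181, Ephx1 and Ostm1 (r = 0.975 each), Celf5 (r = 0.974) and Vps41 (r = 0.971). Tpcn1 encodes a channel of endosomes and lysosomes, Mfsd1 a lysosomal transporter, Ostm1 a subunit of a lysosomal chloride transporter and Vps41 a subunit of the complex that tethers vesicles to lysosomes. Ephx1, microsomal epoxide hydrolase, had late minus early differences of -1.51 and -0.71 in Smurf2-/- and wild-type mixed BL and -1.02 and -0.93 in Smurf2-/- and wild-type C57B6. Those most like Mdm2 were Sgms1, a sphingomyelin synthase (r = 0.995), C1galt1c1, a chaperone of O-glycan synthesis (r = 0.990), Ccdc126 (r = 0.985), Sptlc1, a subunit of the enzyme that begins sphingolipid synthesis (r = 0.979), and Acyp2 (r = 0.975). C1galt1c1 differed by -1.55 and -0.92 in Smurf2-/- and wild-type mixed BL and by -0.24 and -0.27 in C57B6.

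Other p53 targets were measured for comparison. Over all genes, 7444 of 17501 were lower at late passage, 17.3% had an unadjusted p under 0.05 and 0.0171% were called. Of 43 further targets measured, 34 were lower at late passage, 17 had an unadjusted p under 0.05 and 1 passed the test. This was Ptp4a3, a phosphatase gene, which fell by 0.80 ± 0.05 (SE) with a limma adjusted p of 0.0463. The list's median was -0.34. Psrc1, a spindle protein gene, differed by -1.18 ± 0.17, Ephx1 by -1.04 ± 0.17 and Ikbip by -0.59 ± 0.10, each lower in 4 of 4 pairs and none called. Of 14 apoptosis targets measured, 10 were lower late, with a median of -0.36 and 0 called by limma, against 8 of the 14 at an unadjusted p under 0.05, where 17.3% of all genes were. The death receptor gene Fas differed by -1.01 ± 0.11, Pmaip1, which encodes the BH3 protein Noxa, by -1.36 ± 0.17 and Pidd1, a death domain gene, by -0.72 ± 0.14. The pairs were not alike. In Smurf2-/- C57B6, 7 of the 14 apoptosis targets were lower and 7 higher late (median -0.08), and of the 43 others 25 were lower and 18 higher (median -0.11). In Smurf2-/- mixed BL the medians were -0.80 and -0.52, in wild-type mixed BL -0.33 and -0.40, and in wild-type C57B6 -0.46 and -0.22.

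For genotype, 7789 of 17501 genes were lower in Smurf2-/- cells and 0.0286% were called. The same lists had medians of -0.04 and -0.14, with 23 of 43 and 11 of 14 members lower in Smurf2-/- and 0 called. Fas had the smallest p of the apoptosis list, at -0.93 ± 0.11 (SE), lower in 4 of 4 pairs, with a limma adjusted p of 0.408.

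Upstream regulators of p53 and its family members lay on both sides of 0. Of 27 measured, 11 were lower and 16 higher at late passage, near the share of all 17501 genes, of which 7444 were lower and 10057 higher. The list's median was 0.05 and limma called 0, and 0.0171% of all genes. Ppp1r13l, which encodes the p53 inhibitor iASPP, differed by -0.35 ± 0.09 (SE) and Rchy1, which encodes the p53 ubiquitin ligase Pirh2, by -0.32 ± 0.11, both lower in 4 of 4 pairs. Kat5 and Trp53bp2 were higher late in 3 of 4 pairs, by 0.17 ± 0.08 each. The acetyltransferase gene Ep300 was lower without Smurf2 in 4 of 4 pairs, by -0.39 ± 0.13, and Chek1 higher in 4 of 4, by 0.61 ± 0.27. Both had a limma adjusted p of 0.651 for genotype, and Chek1 is also in the list of cell cycle genes below. In every pair 2 of the 27 were lower without Smurf2 and 1 higher, against 1636 and 1918 of 17501 genes.

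Paralogues of the targets were mixed, with 9 of 18 lower and 9 higher at late passage and 0 called. Of all 17501 genes, 7444 were lower and 10057 higher, and 0.0171% were called, so 0 called does not set a list apart. Sesn3, the remaining sestrin, was higher late in 4 of 4 pairs, by 0.69 ± 0.16, and lower without Smurf2 in 4 of 4, by -0.48 ± 0.16. Plk3 was lower late in 4 of 4 pairs, by -0.63 ± 0.25, and Plk1, the mitotic kinase, higher late in 4 of 4, by 0.44 ± 0.20. The lists share some genes: Plk3 is also among the further p53 targets and Plk1 among the cell cycle genes below. In the mTORC1 and GATOR list, the machinery on which sestrins act, 15 of 19 had fitted differences below 0 for passage, against 7444 of 17501 genes. Single pairs were more even: 10 and 11 of the 19 were lower late in Smurf2-/- and wild-type mixed BL. In Smurf2-/- and wild-type C57B6 11 and 14 were. An unadjusted limma p under 0.05 was found for 4 of the 19, against 17.3% of all genes. The list's median was -0.09, where that over all genes was 0.03, and 0 were called. Castor1, an arginine sensor, differed by -1.11 ± 0.23 and the Rag GTPase genes Rragd and Rragc by -0.91 ± 0.22 and -0.60 ± 0.10, each lower in 4 of 4 pairs.

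Cell cycle genes that p53 represses indirectly had medians above 0 in Smurf2-/- cells. Their median late minus early difference over 24 genes was 0.52 and 1.05 in Smurf2-/- mixed BL and C57B6, where that of the 9 targets was -1.36 and -0.35. In wild-type mixed BL and C57B6 the cell cycle medians were -0.18 and -0.01, and the targets' were -0.39 and -0.76. The pair of arrays in which the targets lay lowest was not the one in which cell cycle genes lay highest. Bub1b, a spindle checkpoint kinase gene, was higher late by 0.74 ± 0.20 and Mcm5, a replication licensing gene, by 0.69 ± 0.23 (SE), in 4 of 4 pairs each. All 24 were higher in Smurf2-/- than in wild-type cells in the genotype fit, as were 9712 of 17501 genes. Their median was 0.52 and limma called 0, and 0.0286% of all genes. By pair, the median of Smurf2-/- minus wild-type was 0.66 and 1.09 in late mixed BL and C57B6, with all 24 higher. In early mixed BL and C57B6 it was 0.03 and 0.16, with 15 and 20 of the 24 higher. In the genotype fit 8 of the 24 had an unadjusted limma p under 0.05, against 7.55% of all genes. For genotype by passage 16 of the 24 did, against 5.35% of all genes, and limma called 0.

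**Figure D5:**
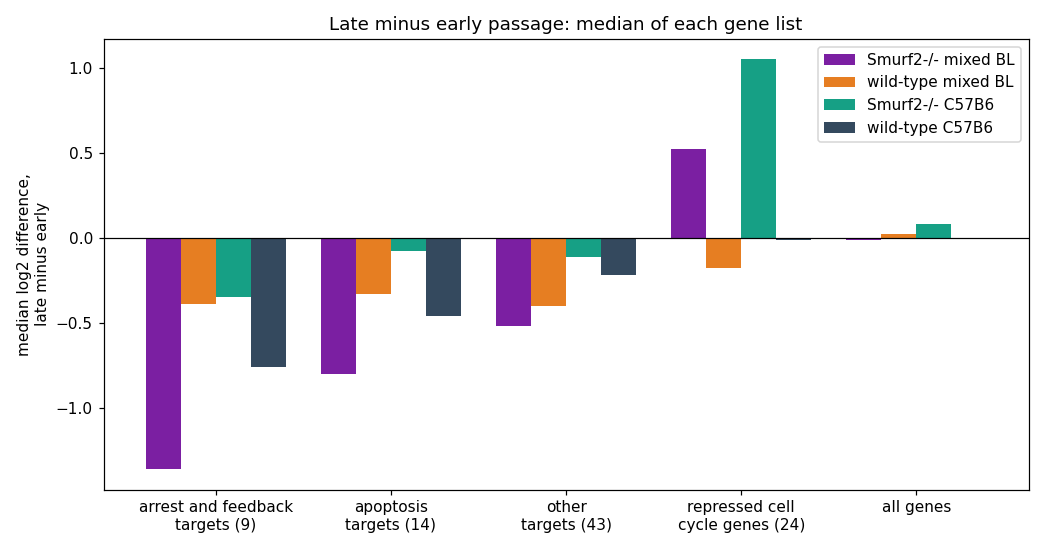
Bars give the median log2 difference of late minus early passage for each gene list (measured genes in brackets) and for all genes, in the 4 matched pairs of arrays. The bars of the 9 arrest and feedback targets lie between -1.36 and -0.35, all below 0, whereas the repressed cell cycle genes reach 1.05 in Smurf2-/- C57B6 and all genes stay near 0.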

How the data were processed

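RNA was measured on 8 arrays. The deposited values are log2, and the authors had centred each cluster on its own median, since no row median exceeded 5e-07. The scale was read from the values, since 96.8% of clusters held whole multiples of the numerical step of log2 intensities from 4 to 8 (tolerance 6e-08). How arrays were normalised and probes summarised is not given in the sources used here. Identifiers were named through a gene-level array's annotation, and 19134 of 24169 clusters had 1 symbol, 1230 several and 3805 none.

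Clusters of a gene were averaged and all 17501 genes fitted with limma 3.58.1 in R 4.3.3 (genotype, background and passage class; 4 residual degrees of freedom, 3 with an interaction), with Benjamini-Hochberg adjustment and a threshold of 0.05. The fit was tested on simulated data, with independent noise and a passage difference larger than that of any target. Recovery of differences as small as those of the targets was not tested. The number ending each title is the passage class, so it pairs arrays of the genotypes, and the additive model holds it as a term. The model has no term for a culture shared by late and early arrays, and its residual spread includes any interaction of the factors. The number of arrays limits precision. Members and lists were chosen with earlier results of these data known. All 9 measured targets are named. Other lists give up to 4 genes of smallest p per comparison, of which examples are shown, and likeness is Pearson r over the 8 arrays. Alternatives were quantile normalisation, other model terms, clusters tested singly or by their median, omission of X and Y genes, and omission of each array. The tandem p53 motif, the median without sestrins and the counts without a pair of arrays were added after seeing the data.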

Additional observations from a re-analysis of the deposited data

Results flagged for a closer look

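Within the 4 arrays of each genotype, passage class or background, 54 sets of values were examined for an array that stood far from the other 3, of which chance marks about 1 in 20; 3 were marked. Mdm2 in the late mixed BL Smurf2-/- array, at -0.92, stood below the other late arrays, which lay between -0.20 and -0.09. Zmat3 in the same array, at -1.23, stood below the other mixed BL arrays, at -0.03 to 0.13. Sesn1 in the late mixed BL wild-type array, at 0.90, stood above the other wild-type arrays, at -0.09 to 0.0022.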

How the results depend on the processing

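The count of targets called was 0 for passage, genotype, background and genotype by passage in every alternative run. For genotype, the unpaired fit with no replicate block (no passage term) also called 0. Its median of -0.25 could not differ from that of the main fit, because the design is balanced. Quantile normalisation gave a median of -0.14 and leaving out 1 array at a time -0.39 to -0.05. All 9 passage differences kept their sign in each of their 14 alternatives, with Sesn2 ranging from -0.25 to -0.07. Other model terms could not alter a target's passage or genotype difference, because the design is balanced. Clusters tested singly or by their median could not either, since each target has 1 cluster, nor could omission of X and Y genes. Only quantile normalisation and omission of single arrays could change these differences. Quantile normalisation turned the genotype differences of Ccng1 and Plk2 to 0.09 and 0.08. Leaving out 1 array at a time, the genotype difference ranged from -0.49 to 0.05 for Mdm2, -0.25 to 0.24 for Ccng1, -0.31 to 0.01 for Sesn1, -0.15 to 0.04 for Sesn2, -0.42 to 0.0035 for Zmat3, -0.51 to 0.06 for Phlda3 and -0.12 to 0.13 for Plk2. The cause was not tested. A mean-variance trend was not run, because centred values hold no mean level.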
